A study of Mus musculus with 4 samples.

Results

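The genes described here encode subunits of the transcription factor NF-kappaB and proteins that it induces, part of which restrain it. They are Nfkb1, Nfkb2, Relb, Nfkbia, Nfkbie, Nfkbiz, Tnfaip3, Tnip1 and Birc3, with the adhesion gene Icam1 as a readout. Of these 10 genes, 9 pair with a probe set of 1 gene symbol, out of 19047 protein-coding genes that do. Nfkb1 has no such probe set and therefore no value. Each of the 9 has a single probe set, so no choice between probe sets enters its values. The rule that picks them uses gene names and no measured value, but the genes were listed with earlier results of these data known.

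RNA of colonic epithelial cells (CECs) enriched through the surface protein EPCAM was hybridized to Clariom D mouse arrays. There was 1 array for each of 4 groups of female BALB/cJ mice aged 8 to 10 weeks. By the study's flow cytometry, part of the enriched cells were not EPCAM-positive. TNBS + I3C mice received 1 mg of TNBS into the colon in 50 µL of 60% ethanol and daily intraperitoneal I3C at 40 mg/kg. TNBS + Veh mice received the same TNBS with 100 µL of the DMSO and corn oil vehicle, I3C mice received I3C and rectal ethanol without TNBS, and Vehicle mice received both vehicles. TNBS is a hapten that causes colitis, I3C (indole-3-carbinol) is a plant-derived ligand of the aryl hydrocarbon receptor, and cells were taken on day 5. The rectal ethanol is thus common to all 4 groups. The study's methods give another volume and ethanol concentration for the TNBS enema, and the labels' RNA extraction note names whole colon tissue although the cells are described as enriched epithelium. Mice of a group were pooled before hybridization, so there is no replicate, no error and no test between groups, and every value below describes single pools. Signals are on a log2 scale, on which a difference of 1 is 2-fold, and levels of different genes are not comparable on an array.

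NF-kappaB proteins are dimers held in the cytoplasm by IkB proteins. Receptors of TNF, interleukin-1 and bacterial products activate the IKK kinases, which mark IkB for destruction and so release the dimers to the nucleus. Many of the genes then switched on shut the pathway off again, among them Nfkbia, which encodes a new supply of IkB alpha, and Tnfaip3, which encodes the ubiquitin-editing enzyme A20. In the gut epithelium the pathway is known for its part in survival and in the recruitment of leukocytes.

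Promoter sequences bear on this group because its members are classic NF-kappaB targets. RefSeq promoter windows of the GRCm38.p6 build, from 250 bases before to 50 after a gene's start, were held for 7 of the 10 genes (Birc3, Icam1, Tnfaip3, Tnip1, Nfkbia, Nfkbie and Nfkb2). The 10-base kappaB consensus was found on either strand in 5 of the 7, compared with 5.53% of 17491 coding genes with a window. The shorter core GGAANTTCC, which reads the same on both strands and was chosen after these sequences had been read, was found in 3 of the 7 (Nfkbia, Tnfaip3 and Icam1), compared with 1.24% of the coding genes. The 7 genes have 10 windows, and a match in any window of a gene was counted. The stretches below are shown because they hold these matches upstream of the start, from a single window per gene. Further windows of Nfkb2, not shown, also held the consensus, and a further window of Tnfaip3 held neither motif. They are written 5′ to 3′ on the strand of the gene, capitals mark bases of either motif, and the 2 motifs overlap in Nfkbia. The sequences are those of the C57BL/6J reference and not of BALB/cJ.
Nfkbia, chr12:55492652-55492691, minus strand: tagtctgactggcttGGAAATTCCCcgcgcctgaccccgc
Nfkbie, chr17:45555579-45555618, plus strand: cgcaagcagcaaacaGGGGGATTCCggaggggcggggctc
Nfkb2, chr19:46304683-46304736, plus strand: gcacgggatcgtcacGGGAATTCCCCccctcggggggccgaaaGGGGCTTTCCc
Tnip1, chr11:54962972-54963013, minus strand: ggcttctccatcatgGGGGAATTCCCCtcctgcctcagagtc
Tnfaip3, chr10:19015411-19015550, minus strand: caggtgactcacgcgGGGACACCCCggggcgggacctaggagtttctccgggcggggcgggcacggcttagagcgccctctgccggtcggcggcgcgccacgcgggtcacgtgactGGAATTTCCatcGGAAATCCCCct
Icam1, chr9:21015772-21015810, plus strand: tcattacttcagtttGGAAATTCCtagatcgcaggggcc

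In Nfkbia the match ended 20 bases before the start, in Tnip1 3 overlapping matches lay between 58 and 47 bases before it, and in Icam1 the core lay 153 to 145 bases before it. The Birc3 window held neither motif. A match describes letters of the reference and says nothing of binding in these cells, and a missing match says only that these letters are not in this window.

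All 9 genes were above the level of sensory receptor genes in every array. That level is the 95th percentile of 1720 probe sets of olfactory and vomeronasal receptors, which colon cells are not known to use, and lay between 5.23 and 5.43. Of the 9 epithelial marker genes, all were above it in all arrays, with a summed signal on the log2 scale of 20.92 in TNBS + I3C, 20.89 in TNBS + Veh, 20.70 in I3C and 20.81 in Vehicle. The larger part of each sum came from Krt8, which read 19.93, the highest value of the data, in all 4 arrays. Without it the sums were 19.90 in TNBS + I3C, 19.85 in TNBS + Veh, 19.43 in I3C and 19.69 in Vehicle. Such sums weigh bright probe sets most and are compared only between arrays. The summed signal of 15 neutrophil markers was 12.74 in TNBS + I3C, 15.92 in TNBS + Veh, 12.35 in I3C and 11.74 in Vehicle, with 7, 13, 6 and 7 of the markers above the level in the same arrays. Outside TNBS + Veh, Ly6g alone supplied between 83.6% and 90.1% of that sum, and without it the sums were 9.40 in TNBS + I3C, 15.63 in TNBS + Veh, 9.06 in I3C and 9.13 in Vehicle. The median difference of the 15 markers was 2.51 in TNBS + Veh against Vehicle and 0 in TNBS + I3C against Vehicle. S100a8, which encodes a subunit of calprotectin, read 4.23 in TNBS + I3C, 12.74 in TNBS + Veh, 3.54 in I3C and 4.34 in Vehicle, and was thus above the level in TNBS + Veh alone. Mpo and Elane, genes of the granules of immature neutrophils, were above it in no array. Of 11 macrophage markers 8 were above it in no array. The summed signal of the 11 was 8.57 in TNBS + I3C, 9.13 in TNBS + Veh, 8.54 in I3C and 8.52 in Vehicle. Of the others, Cd68 read 6.30 in TNBS + I3C, 7.99 in TNBS + Veh, 6.14 in I3C and 6.11 in Vehicle. Cx3cr1 read 5.59, 5.79, 5.82 and 5.86 in the same order, and Csf1r was above the level in TNBS + Veh alone. For 5 T cell markers the sums were 8.52, 7.96, 8.32 and 8.12 in the same order of arrays, for 6 fibroblast markers 8.14, 8.58, 8.20 and 8.26, and none of 4 B cell markers was above the level. The part of these markers in the differences below was not tested. In pooled cells, more cells of a type and more RNA per cell cannot be told apart.

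In TNBS + Veh, all 9 genes read above their value in Vehicle, and 3 of them, Icam1, Nfkbiz and Tnfaip3, were higher by 2-fold or more. In the same comparison 1.75% of all coding genes were at least 2-fold higher, and 3.05% of the 10695 coding genes above the sensory receptor level in at least 1 array. A higher value of any size was read for 61.4% of those 10695. The median difference of the 9 genes was 0.61, compared with 0.08 for the 10695 genes and -0.02 for all coding genes. Over the 100 coding genes nearest in mean signal, the SD of the difference was 0.766 for Nfkbia and 0.488 for Nfkb2. It was 0.408 for Tnip1 and 0.357 for Relb. Each of these genes differed from Vehicle by less than its SD, and the remaining members by more than theirs. None of the 9 was 2-fold lower, as were 0.536% of all coding genes. At a threshold of 1.5-fold, Birc3 and Nfkbia joined the 3 genes, making 5 of the 9. The share at 1.5-fold was 6.04% of all coding genes and 10.1% of those above the level. At 3-fold Icam1 alone remained, compared with 0.725% and 1.29%.

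**Figure D1:**
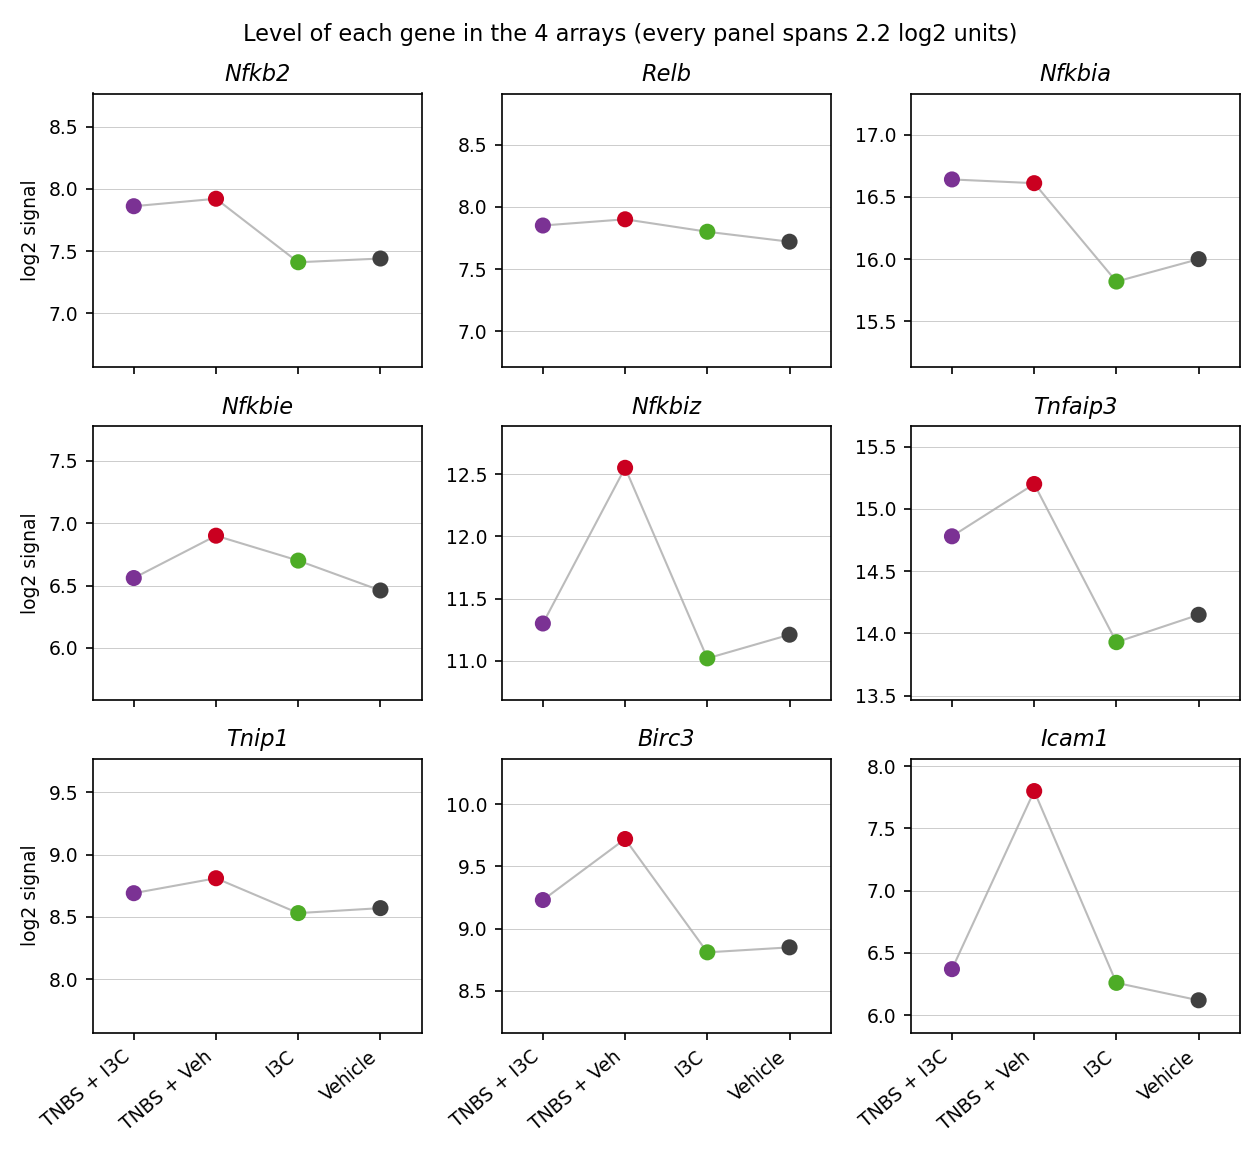
Log2 signal (y axis) of the 9 measured genes in the 4 arrays (x axis, 1 point per array of pooled mice, no error bars), with every panel spanning the same range. Icam1 and Nfkbiz stand high in TNBS + Veh alone, at 7.80 and 12.55, whereas Nfkbia and Nfkb2 read nearly the same in both TNBS arrays.

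Of the subunit genes among the members, Nfkb2 and Relb, neither differed by 2-fold in any comparison. Nfkb2 encodes the precursor of the subunit used in the alternative pathway, and Relb encodes its usual partner. Nfkb2 read 7.86 in TNBS + I3C, 7.92 in TNBS + Veh, 7.41 in I3C and 7.44 in Vehicle. Both TNBS arrays were thus high and both arrays without TNBS low, with TNBS + Veh 1.39-fold above Vehicle. Relb read 7.85 in TNBS + I3C, 7.90 in TNBS + Veh, 7.80 in I3C and 7.72 in Vehicle, the narrowest range of the 9 genes (0.18). The 3 remaining subunits are encoded by Nfkb1, which was not measured, and by Rel and Rela, described with the wider pathway.

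Of the genes of IkB proteins, Nfkbia and Nfkbiz had different patterns over the arrays. Nfkbia read 16.64 in TNBS + I3C, 16.61 in TNBS + Veh, 15.82 in I3C and 16.00 in Vehicle. The TNBS arrays were both high and differed from each other by 0.03, with a difference from Vehicle of 0.61 in TNBS + Veh and 0.64 in TNBS + I3C. These are fold differences of 1.53 and 1.56. Nfkbia is among the brighter genes of the array. Of 23 coding genes with a mean between 16 and 17, 2 had equal values in all 4 arrays, compared with 0 of 114 between 14 and 16. The SD of the difference between TNBS + Veh and Vehicle was 0.800 over the 23. Whether the signal of Nfkbia was compressed at this brightness was not tested. Under quantile normalization, the Nfkbia differences from Vehicle were 0.38 in TNBS + Veh and 0.55 in TNBS + I3C.

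Nfkbiz encodes IkB zeta, a nuclear cofactor that supports part of the NF-kappaB targets instead of holding dimers in the cytoplasm. It read 11.30 in TNBS + I3C, 12.55 in TNBS + Veh, 11.02 in I3C and 11.21 in Vehicle. TNBS + Veh stood alone above the other arrays, 2.53-fold higher than Vehicle, and TNBS + I3C was 2.38-fold lower than TNBS + Veh. Its difference of 0.09 between TNBS + I3C and Vehicle was -0.03 under quantile normalization. Nfkbie, which encodes IkB epsilon, read 6.56 in TNBS + I3C, 6.90 in TNBS + Veh, 6.70 in I3C and 6.46 in Vehicle. Its range was 0.44, with TNBS + Veh highest.

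Among the genes of ubiquitin regulators, Tnfaip3 differed most. A20 removes and adds ubiquitin chains on signalling proteins such as RIPK1, Tnip1 encodes a ubiquitin-binding partner of A20, and Birc3 encodes a ubiquitin ligase of the TNF receptor complex (cIAP2). Tnfaip3 read 14.78 in TNBS + I3C, 15.20 in TNBS + Veh, 13.93 in I3C and 14.15 in Vehicle. Both TNBS arrays were above both others, and TNBS + Veh was 2.07-fold above Vehicle, a difference of 1.05 that was 0.79, and so under 2-fold, with quantile normalization. Birc3 read 9.23 in TNBS + I3C, 9.72 in TNBS + Veh, 8.81 in I3C and 8.85 in Vehicle. The arrays stood in the same order as for Tnfaip3, with I3C and Vehicle apart by only -0.04, and TNBS + Veh was 1.83-fold above Vehicle. Tnip1 read 8.69, 8.81, 8.53 and 8.57 in TNBS + I3C, TNBS + Veh, I3C and Vehicle, a range of 0.28.

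Icam1, which encodes an adhesion protein that binds leukocyte integrins, differed most of the 9 genes. It read 6.37 in TNBS + I3C, 7.80 in TNBS + Veh, 6.26 in I3C and 6.12 in Vehicle. TNBS + Veh was the only high array, 3.20-fold above Vehicle, and TNBS + I3C was 2.69-fold lower than TNBS + Veh. Since endothelium is among the cell types that use Icam1, endothelial markers are given here, and those of neutrophils, macrophages and other cells are given above. Which cells the Icam1 signal came from was not tested. Of 7 endothelial marker genes, 6 stayed at or under the sensory receptor level throughout, so that no difference can be read from them. Pecam1, the seventh, was above it except in TNBS + Veh, where it read 5.22, compared with 5.45 in Vehicle. The summed signal of the 7 was 7.39 in TNBS + I3C, 7.30 in TNBS + Veh, 7.60 in I3C and 7.54 in Vehicle. Among the 10695 coding genes above the level, the difference between TNBS + Veh and Vehicle ranked 123 from the highest for Icam1, 190 for Nfkbiz, 294 for Tnfaip3 and 466 for Birc3.

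**Figure D2:**
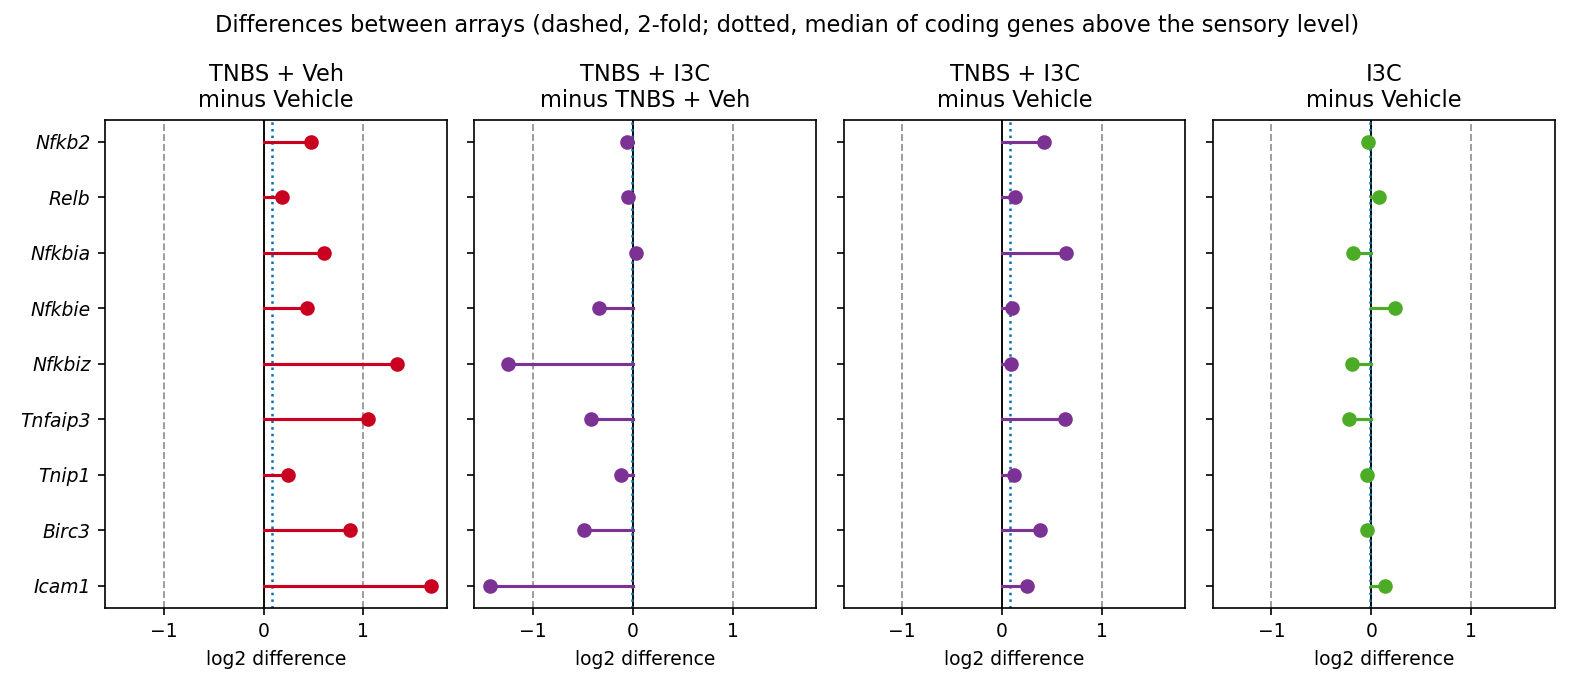
Log2 difference (x axis) of each gene (rows) in 4 comparisons of single arrays, with dashed lines at 2-fold and a dotted line at the median of the coding genes above the sensory receptor level. In TNBS + Veh minus Vehicle all 9 points lie right of 0, and in TNBS + I3C minus TNBS + Veh the points of Icam1 (-1.43) and Nfkbiz (-1.25) lie beyond 2-fold.

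The 9 genes differed in how far TNBS + I3C lay from TNBS + Veh. In TNBS + I3C against TNBS + Veh, 2 of the 9 genes, Icam1 and Nfkbiz, were at least 2-fold lower, compared with 0.95% of all coding genes and 1.65% of those above the sensory receptor level. None was 3-fold lower, compared with 0.504% of all coding genes, and none 2-fold higher, compared with 0.599%. A lower value of any size was read for 8 of the 9 and for 51.6% of the coding genes above the level. Birc3 (-0.49), Tnfaip3 (-0.42) and Nfkbie (-0.34) read lower by less than 2-fold. Over the 100 coding genes nearest in mean signal, the SD of this difference was 0.322 for Birc3, 0.457 for Tnfaip3 and 0.343 for Nfkbie. Only Icam1, Nfkbiz and Birc3 differed by more than their SD. Tnip1 (-0.12), Nfkb2 (-0.06), Relb (-0.05) and Nfkbia (0.03) read nearly the same in both arrays. The median of the 9 was -0.34, compared with -0.01 for the coding genes above the level.

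Against Vehicle, no gene of the 9 was 2-fold higher or lower in TNBS + I3C, as were 0.635% and 0.168% of all coding genes. All 9 read higher than Vehicle by some amount, as did 62.5% of the coding genes above the level. The largest differences were those of Nfkbia (0.64) and Tnfaip3 (0.63), followed by Nfkb2 (0.42) and Birc3 (0.38). Nfkbia and Tnfaip3 were higher by 1.5-fold or more, as were 3.74% of all coding genes and 5.9% of those above the level. Icam1 (0.25), Relb (0.13), Tnip1 (0.12), Nfkbie (0.10) and Nfkbiz (0.09) were closer to Vehicle. The differences from TNBS + Veh and from Vehicle share the TNBS + I3C array. Set against the I3C array, TNBS + I3C was higher by 0.85 for Tnfaip3, 0.82 for Nfkbia, 0.45 for Nfkb2 and 0.42 for Birc3, and by 0.28 for Nfkbiz and 0.11 for Icam1.

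Without colitis, I3C and Vehicle differed by less. None of the 9 genes was 2-fold higher or lower in I3C, as were 0.221% and 0.116% of all coding genes. The differences ran from -0.22 for Tnfaip3 to 0.24 for Nfkbie, with a median of -0.04. Of the 9, 3 read higher (Nfkbie, Icam1 and Relb) and 6 lower, and 52.1% of the coding genes above the level read lower. Over the 100 coding genes nearest in mean signal, this difference had an SD of 0.196 for Nfkbie and 0.353 for Tnfaip3, and Nfkbie was the only one of the 9 that differed by more than 1 such SD.

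The wider pathway was described with 6 lists of genes by role, of which 89 of 97 genes were measured. These lists were chosen with earlier results of these data known, so their counts beside all coding genes are descriptive and no test of the pathway. In TNBS + Veh against Vehicle, 16 of the 89 were higher by 2-fold or more and 1 was 2-fold lower, with a median of 0.26, compared with 1.75% and 0.536% of all coding genes. In TNBS + I3C against TNBS + Veh, 1 was 2-fold higher and 11 were 2-fold lower (median -0.17), compared with 0.599% and 0.95%. In TNBS + I3C against Vehicle, 3 were 2-fold higher, compared with 0.635%, and in I3C against Vehicle none was 2-fold higher or lower, compared with 0.221% and 0.116%.

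All 5 remaining Rel and IkB genes read above Vehicle in both TNBS arrays, with a median difference of 0.99 in TNBS + Veh and 0.63 in TNBS + I3C. Rel and Nfkbid were 2-fold higher in TNBS + Veh, and Rela in TNBS + I3C. Rel encodes the subunit c-Rel and read 12.15 in TNBS + I3C, 12.85 in TNBS + Veh, 11.42 in I3C and 11.52 in Vehicle. Rela encodes the main activating subunit of the classical pathway and read 12.74 in TNBS + I3C, 12.42 in TNBS + Veh, 11.89 in I3C and 11.43 in Vehicle. Rela was thus highest in TNBS + I3C, where it was 1.31 above Vehicle on the log2 scale, and it was also higher in I3C than in Vehicle, by 0.46. Nfkbid, Nfkbib and Bcl3 encode further IkB proteins. Against Vehicle, the differences were 1.04, 0.85 and 0.83 for TNBS + Veh and 0.50, 0.67 and 0.27 for TNBS + I3C.

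Only single genes of the kinases and of the ubiquitin machinery differed by 2-fold. Below 2-fold, Ikbke (0.63) and Sharpin (0.56) were highest and Otulin (-0.37) lowest in TNBS + Veh against Vehicle. Of 10 measured genes of IKK and its kinases, Map3k8, a kinase held by the Nfkb1 precursor, was 2-fold higher in TNBS + Veh (7.75, compared with 6.28 in Vehicle), and it read 6.39 in TNBS + I3C. In TNBS + Veh against Vehicle, Ikbkb and Ikbkg, the genes of the catalytic beta subunit and the scaffold of IKK, differed by 0.28 and -0.10, and Map3k14, the kinase of the alternative pathway, by 0.11. Chuk, the gene of the catalytic alpha subunit, has no probe set of 1 symbol. Of 18 measured genes of TRAF, RIP and ubiquitin proteins, Tnip3 alone was 2-fold higher, with 9.55 in TNBS + I3C, 9.99 in TNBS + Veh, 9.34 in I3C and 8.68 in Vehicle. The list median was 0.07.

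Of the genes upstream, 3 of 10 ligands and 3 of 18 receptors and adaptors were 2-fold above Vehicle in TNBS + Veh, and the list medians were 0.175 and 0.28. Of the ligand genes, Il1b stood 5.53 above Vehicle in TNBS + Veh on the log2 scale, Il1a 4.84 and Tnf 2.89, whereas the other 7 of 10 were within 0.32 of Vehicle. In TNBS + I3C against TNBS + Veh the differences were -4.38 for Il1b, -4.47 for Il1a and -2.40 for Tnf. Il1b was still 1.15 above Vehicle in TNBS + I3C, the only ligand gene 2-fold higher there. Tnf read 9.14 in TNBS + I3C, 11.54 in TNBS + Veh, 8.84 in I3C and 8.65 in Vehicle. Of 18 receptors and adaptors, Irak3, an inhibitory kinase of receptor signalling, Tnfrsf1b, which encodes TNF receptor 2, and Tnfrsf12a were 2-fold higher in TNBS + Veh, by 2.72, 2.51 and 1.04. In TNBS + I3C against TNBS + Veh, Irak3 and Tnfrsf1b differed by -2.48 and -1.85. Tnfrsf1a, which encodes the main TNF receptor of epithelium, was higher in TNBS + Veh by 0.52.

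**Figure D3:**
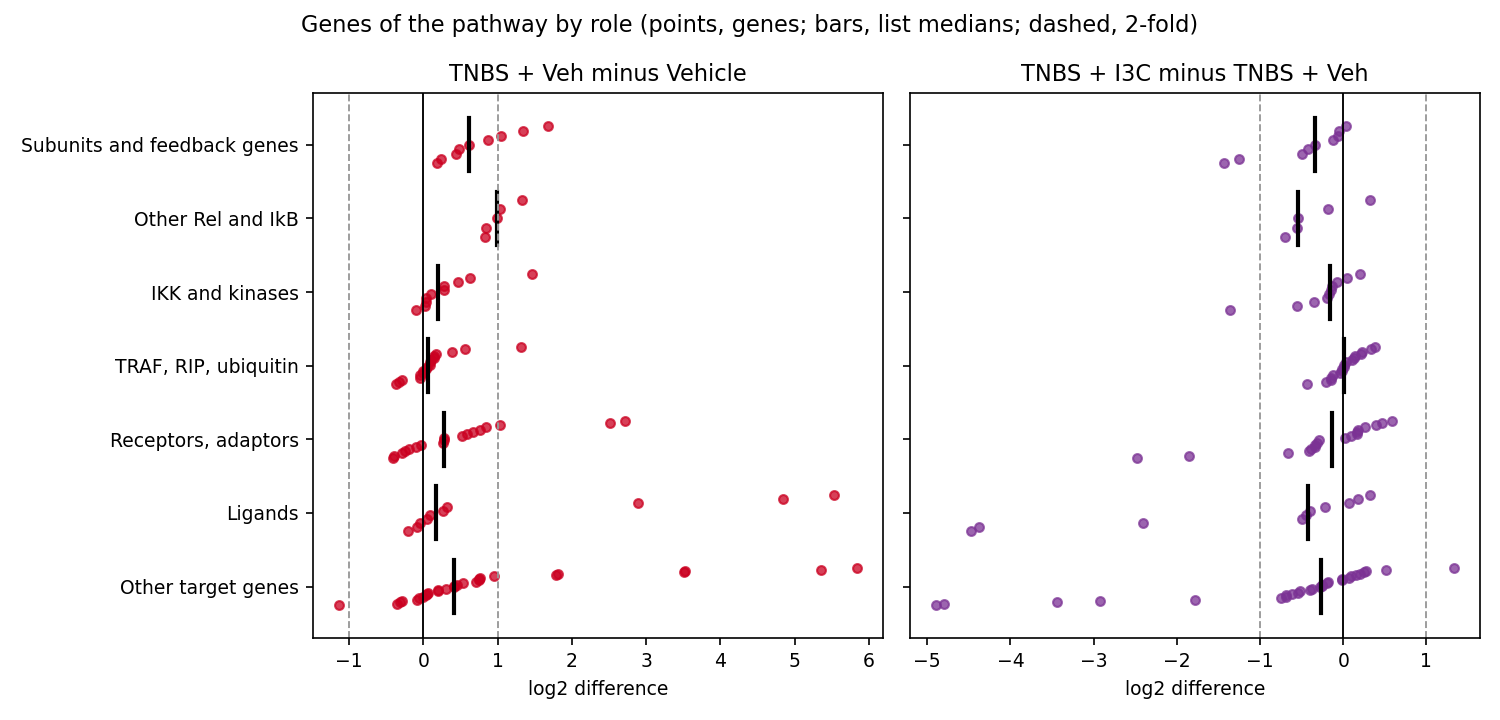
Log2 differences (x axis) of the genes of each list (points), with list medians as bars and dashed lines at 2-fold, for TNBS + Veh minus Vehicle and TNBS + I3C minus TNBS + Veh. The widest spread is that of ligands and other target genes, from -1.13 for Cd83 to 5.84 for Cxcl2 in the first comparison, against 0.18 to 1.68 for the 9 subunit and feedback genes.

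Of 28 other target genes measured, 6 reached 2-fold above Vehicle in TNBS + Veh, as did 1.75% of all coding genes and 3.05% of those above the sensory receptor level. The chemokine gene Cxcl2 was higher by 5.84, the acute phase gene Saa3 by 3.52, Ptgs2, which encodes cyclooxygenase-2, by 3.51 and Ier3 by 1.81. Lcn2, which encodes lipocalin-2, and Nos2, which encodes inducible nitric oxide synthase, did not exceed the sensory receptor level in Vehicle, and against the highest such level, 5.43, they were higher by at least 4.48 and 1.06. Cd83, which encodes a surface protein of activated leukocytes, differed by -1.13. In TNBS + I3C, Ier3 read 8.18, compared with 8.56 in TNBS + Veh and 6.75 in Vehicle, and was the only gene of this list still 2-fold above Vehicle. Il6, Csf2, Csf3 and Sele exceeded the level in no array.

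**Figure D4:**
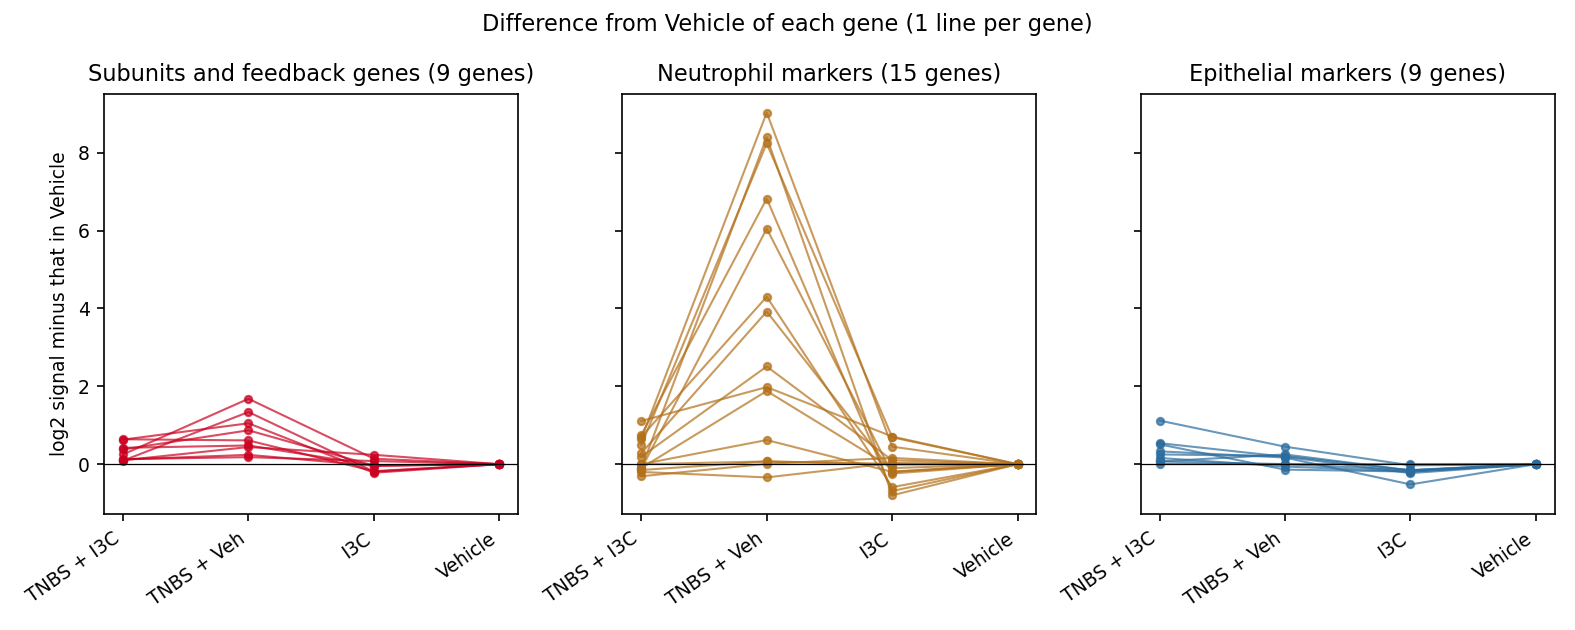
Log2 signal minus that in Vehicle (y axis) in the 4 arrays (x axis), with 1 line per gene, for the subunit and feedback genes, neutrophil markers and epithelial markers. Values under the sensory receptor level are plotted as read. Of the neutrophil markers above that level in all arrays, S100a9 stands 8.24 above Vehicle in TNBS + Veh, and the 9 subunit and feedback genes stand at most 1.68 above it.

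By likeness of pattern, the 3 genes with the widest range had different neighbours. Likeness was measured as the root mean square distance between log2 values over the 4 arrays, each gene centred on its own mean, among 10694 other coding genes above the sensory receptor level in at least 1 array. Nearest to Icam1 were Pilrb1 (0.0384), Slc10a2 (0.045), Hmox1 (0.0673), Itgb2 (0.0683) and Dmxl2. Nearest to Nfkbiz were Klra17, Tlr13, Ifnar2 (0.0339), Gsap (0.0497) and Mki67 (0.0687), and nearness is not read for Klra17, Tlr13 and Dmxl2, which were under the sensory receptor level outside TNBS + Veh. Nearest to Tnfaip3 were Cpne2 (0.0311), Nr1h4 (0.0377), Tm6sf2 (0.0391), Pllp (0.0415) and Ddah1 (0.043). With 4 arrays, many genes lie close to any pattern, and no test was made.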

How the data were processed

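The authors processed the 4 arrays, 1 per group of pooled mice, in the Transcriptome Analysis Console and deposited log2 values with 2 decimals for 65956 probe sets. How background was corrected, how arrays were normalized and which genome build applied is not stated in the sources at hand, and the number of arrays limits the precision. Gene names come from the platform's annotation, brought up to date with RefSeq genes of GRCm38.p6. A single symbol was listed for 30638 probe sets, of which 22596 were updated through the gene number, 7710 through the symbol and 332 not at all. Several symbols were listed for 2176, which were not named, and the rest are unnamed here. Where a coding gene had several probe sets, the one of highest mean was used. A gene is called higher or lower at 2-fold, with no test. The members, gene lists and comparisons were chosen with earlier results of these data known. The genes named are the members, up to 4 past 2-fold per list and comparison, genes central to the pathway, cell type markers and the 5 nearest in pattern to 3 members. Others were chosen after their values were seen. Alternatives were quantile normalization, median centring, dim values raised to 5.43, the mean of a gene's probe sets and thresholds of 1.5-fold and 3-fold. The array of I3C in place of Vehicle, and marker sums without Krt8 or Ly6g, were added after seeing the data. The fold rule was tested on simulated data. The software was Python 3.11.15, numpy 2.4.6, pandas 2.3.3 and, for plots, matplotlib 3.10.9.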

Additional observations from a re-analysis of the deposited data

Results flagged for a closer look

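The difference with I3C had opposite signs with and without colitis for 4 of the 9 genes, as it had for 48.5% of all coding genes and 49.3% of those above the sensory receptor level, so the count is near the background. The contrast between the 2 settings was not tested, since each difference rests on 2 arrays. Icam1 differed by -1.43 in TNBS + I3C against TNBS + Veh and by 0.14 in I3C against Vehicle. For Nfkbie these values were -0.34 and 0.24, for Relb -0.05 and 0.08, and for Nfkbia 0.03 and -0.18. The SD of I3C minus Vehicle over the 100 coding genes nearest in mean signal was 0.173 for Icam1, 0.225 for Relb and 0.406 for Nfkbia. The difference without colitis was under this SD for all of them, and above it only for Nfkbie (SD 0.196).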

How the results depend on the processing

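Of 36 differences (9 genes in 4 comparisons), none that was 2-fold changed sign under quantile normalization or median centring. Raised dim values and the mean of probe sets could not move any, since each gene has 1 probe set and is above the sensory receptor level in all arrays. Median centring moved them by -0.02 to 0.05. Quantile normalization moved them by -0.27 to 0.14, turned the sign of 1 (Nfkbiz in TNBS + I3C against Vehicle) and left 2 in place of 3 genes 2-fold higher in TNBS + Veh, without Tnfaip3. At a threshold of 1.5-fold, 5 genes were above Vehicle in TNBS + Veh and 2 (Nfkbia and Tnfaip3) in TNBS + I3C. At 3-fold, 1 gene, Icam1, was higher in TNBS + Veh, and 0 were lower when TNBS + I3C was set against TNBS + Veh. Set against I3C, Nfkbie read -0.14 in TNBS + I3C. No paired analysis was possible because each group is 1 array.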
